A study of Homo sapiens with 4 samples.

Results

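The genes described here are 10 chaperones, co-chaperones and regulators of the heat shock response, chosen by name: HSP90AA1, HSP90AB1, TRAP1, HSPD1, HSPE1, HSPB1, BAG3, STIP1, HSF1 and HSF2. They are 10 of the 58735 genes counted, and all 10 passed the filter on low counts and were tested. The libraries came from HCT116, an established human colon cancer cell line grown in McCoy's 5A medium, with 2 libraries carrying a control shRNA and 2 carrying an shRNA against RBM25, an RNA-binding protein that acts with the U1 snRNP in splice site choice. Both groups carried an shRNA and differed in its target. Not given here are the shRNA sequence, the number of shRNAs and the time after knockdown. No label states that replicates were separate cultures. The p-values set the group difference against the spread between these libraries only, and that spread may be technical.

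HSP90 is an abundant ATP-dependent chaperone that completes the folding of client proteins such as kinases and steroid receptors, and it works with co-chaperones that deliver clients or pace its ATPase. HSP60 (HSPD1) and its lid HSP10 (HSPE1) form the folding chamber of the mitochondrial matrix. Small heat shock proteins such as HSPB1 hold unfolded proteins without using ATP. HSF1 is the transcription factor that switches on many of these genes in stressed cells by binding the heat shock element, a run of alternating GAA and TTC units, and HSP90 and HSP70 chaperones hold it inactive in unstressed cells.

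The heat shock elements of these genes are shown because HSF1, a member itself, acts through such runs. RefSeq promoters of GRCh38.p14, from 250 bases before to 50 bases after each start site, were searched on both strands for adjacent inverted units (GAANNTTC or TTCNNGAA) and for runs of 3 units (GAANNTTCNNGAA or TTCNNGAANNTTC), which overlap the pairs they contain. The 15 promoters of 9 members were searched. Of these 9 genes, 5 held a pair and 3 held a run of 3 units, beside 16.2% and 0.608% of the 27305 genes in the table. By promoter, 5 of 15 held a pair, beside 13.5% of 35116. Each stretch below is 30 bases long, reads 5′ to 3′ on the gene's strand, and has the GAA and TTC units of its pairs in capitals.
HSP90AA1: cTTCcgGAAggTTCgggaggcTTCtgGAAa
HSP90AB1: ggagcaggTTCtgGAAgaTTCatgggctcc
HSP90AB1: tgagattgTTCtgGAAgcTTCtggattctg
HSPD1: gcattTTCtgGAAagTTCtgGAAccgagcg
HSPB1: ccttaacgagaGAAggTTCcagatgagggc
STIP1: cttctagtaggTTCcaGAAggcggcgcgtg

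The HSP90AA1 stretch (chr14:102087104-102087133, minus strand) held 5 units between 88 and 61 bases before a start site and lay in an annotated HSP90AA1 exon. The HSP90AB1 promoter held 2 runs of 3 units before its start site at base 44247943, at chr6:44247770-44247799 and chr6:44247823-44247852 on the plus strand. The HSPD1 stretch (chr2:197500061-197500090, minus strand) had 4 units and lay where annotated exons of HSPD1 and HSPE1 overlap. HSPB1 (chr7:76302480-76302509, plus strand) and STIP1 (chr11:64186173-64186202, plus strand) each held a single pair, that of STIP1 after the start site in an exon. No pair was found in the searched windows of HSPE1, BAG3, HSF2 and TRAP1. The HSPE1 window ran from base 197500129 to 197500428 and so left out the nearby HSPD1 stretch. A match describes these letters and is not a binding site measured here.

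The libraries held 15528869 and 16982663 counts for the controls and 15528274 and 16335555 for RBM25 shRNA. RBM25 itself (ENSG00000119707, chromosome 14, 73058436 to 73123898) was counted at 155.3 and 114.9 CPM (counts scaled to library size with edgeR's TMM factors) in the controls and 44.0 and 35.7 in the RBM25 shRNA libraries, a 3.39-fold lower mean (log2 fold change -1.76 ± 0.30 SE, edgeR adjusted p = 0.0195). Without RBM25 shRNA replicate 1 or 2 the adjusted p was 0.0797 and 0.152. Of 7 epithelial and colon line markers, 6 were tested, and the summed level was 3404 and 4210 CPM in the controls and 4406 and 5516 in the RBM25 shRNA libraries. KRT8 had the largest part of this sum, at 1622 and 2091 CPM against 2409 and 3153 CPM. Of the 6 tested, 4 had a log2 fold change above 0. EPCAM (-0.06 ± 0.26) and CDH1 (-0.23 ± 0.27) were below 0. VIL1 was at most 0.067 CPM. Of 18 markers of leukocytes, fibroblasts, endothelium, muscle and nerve, 13 were under 1 CPM in every library and 4, among them CD3E, PDGFRA and CDH5, were at 0, and their summed level was 47.62 and 72.36 CPM against 50.59 and 63.33 CPM. COL1A1 made up most of this sum, with 39.1 and 62.0 CPM of it in the controls. KDR had 12 and 20 counts against 0 and 0, at least 4.78-fold lower against a floor of 3 counts per library. It passed the filter on low counts through the controls alone, was called lower by edgeR, was not tested with the stricter filter, and was not called with limma on log2 FPKM (adjusted p of 0.237 and 0.101). MYH11 was at 2.85 and 3.85 CPM against 8.04 and 7.90 CPM (1.25 ± 0.35, adjusted p = 0.086, and 1.41 with 0.0051 after the GC correction). The part of these markers in the results below was not tested.

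HSPE1, the HSP10 lid of the mitochondrial chaperonin, was the member whose transcript rose past the threshold, an edgeR adjusted p of 0.05. It rose 3.05-fold. The chaperonin HSPD1 and the cytosolic HSP90 genes HSP90AA1 and HSP90AB1 had means 2.34, 2.32 and 1.99 times those of the controls with adjusted p of 0.0527, 0.0793 and 0.0737, and STIP1 1.71 times. TRAP1, HSPB1, HSF1 and HSF2 had RBM25 shRNA values that overlapped the control values. So 1 of 10 members was called higher where 0.653% of the 16091 genes tested were, and 0 of 10 were called lower where 2.4% were, with 5 members higher at an unadjusted p under 0.05, beside 7.92% of genes, and 0 lower. DESeq2 called 4 members higher, beside 2.4% of genes, and 0 lower, beside 4.34%.

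The median log2 fold change of the 10 members was 0.59 beside -0.04 over all genes tested, and 8 of 10 were above 0 beside 47.5%. In 6 of 10 members both RBM25 shRNA libraries lay above both controls, beside 23.9% of all genes tested, and in 0 of 10 they lay below both, beside 27.9%. The count of members called higher depended on which library was left out, and so did the count over all genes tested. Replicates differed along GC content across all genes. After a smooth trend on transcript GC content was taken out of every library, 6 of 10 members were called higher, beside 12.8% of genes, and 0 of 10 lower, beside 15.3%. After the correction all 10 log2 fold changes were above 0, beside 7792 of the 16091 genes tested. The median was 0.73, beside -0.023 over all genes tested. TRAP1 and HSPB1 had been below 0 before it and were then at 0.005 ± 0.123 and 0.207 ± 0.126. These values are relative to the rest of each library, and in bulk RNA a change in the RNA of each cell cannot be told apart from a change in the share of cells that make it.

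**Figure D1:**
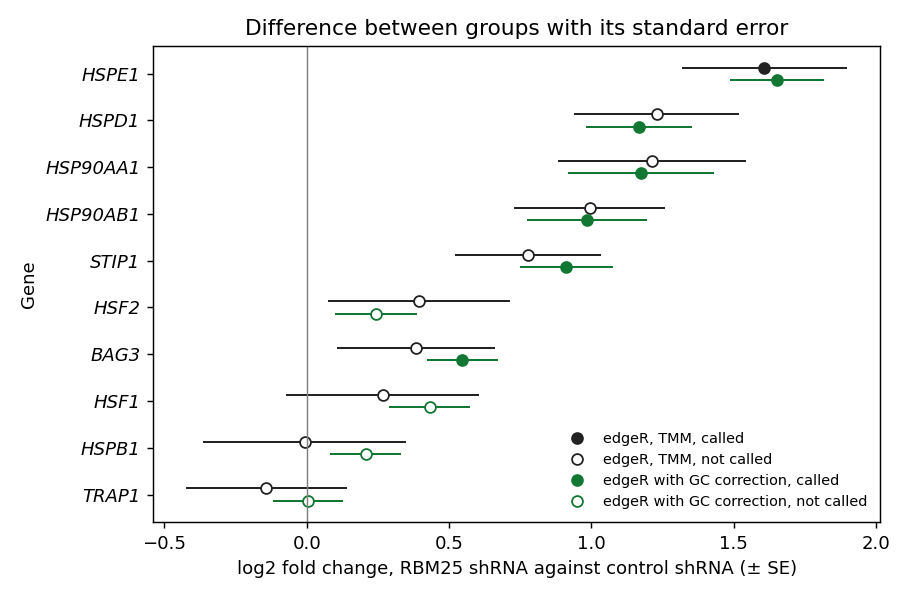
Log2 fold change of each of the 10 genes, RBM25 shRNA against control shRNA (horizontal axis), with bars of ± 1 SE from edgeR and n = 2 libraries per group. Black points are the fit with TMM scaling and green points the fit after the GC correction, filled where the adjusted p is under 0.05; HSPE1 is filled in both, and HSPD1, HSP90AA1, HSP90AB1, STIP1 and BAG3 are filled after the correction.

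Cytosolic HSP90 is made from 2 genes, the more inducible HSP90AA1 (HSP90 alpha) and the more constitutive HSP90AB1 (HSP90 beta). HSP90AA1 (ENSG00000080824, chr14:102080738-102139699, minus strand) was at 3364 and 1728 CPM in the controls and at 6504 and 5289 CPM after RBM25 knockdown. Both knockdown libraries lay above both controls, and the controls differed from each other more than the knockdown libraries did. The means were 2546 ± 1157 and 5896 ± 860 CPM (SD, n = 2 per group), and the log2 fold change was 1.21 ± 0.33 (SE, edgeR adjusted p = 0.0793). The size moved with the controls. It was 1.77 without control replicate 1 and 0.81 without control replicate 2, and both fits called it (adjusted p of 1.48e-09 and 0.0183). Without RBM25 shRNA replicate 1 (1.06, adjusted p = 0.244) or 2 (1.38, 0.0536) it was not called. With the GC correction it was 1.18 ± 0.26 with an adjusted p of 0.0106.

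HSP90AB1 (ENSG00000096384, chr6:44246166-44253888, plus strand) was at 3253 and 2288 CPM in the controls and at 5740 and 5299 CPM after RBM25 knockdown. The groups did not overlap, and the lower control was again replicate 2. The means were 2771 ± 682 and 5520 ± 312 CPM (SD, n = 2 per group), and the log2 fold change was 0.99 ± 0.26 (edgeR adjusted p = 0.0737) and 0.99 ± 0.21 once GC content was corrected for (adjusted p = 0.00954). The 2 genes together took 0.674% and 0.424% of all counts in the controls and 1.18% and 1.02% in the RBM25 shRNA libraries. All 10 members took 0.883% and 0.616% against 1.54% and 1.36%. Counts of annotated pseudogenes, to which reads of these genes could be assigned, came to at most 0.425% of the HSP90AA1 count and at most 0.395% of the HSP90AB1 count in any library.

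The balance between the paralogs was compared within each library, where library scaling cancels. Per listed length, HSP90AA1 was at 0.587 and 0.429 times the HSP90AB1 level in the controls and at 0.643 and 0.567 times in the RBM25 shRNA libraries. These ranges overlapped. The log2 ratio differed by 0.27 between the groups (two-sided exact permutation p = 0.667, which cannot go below 0.33 with 2 libraries against 2).

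**Figure D2:**
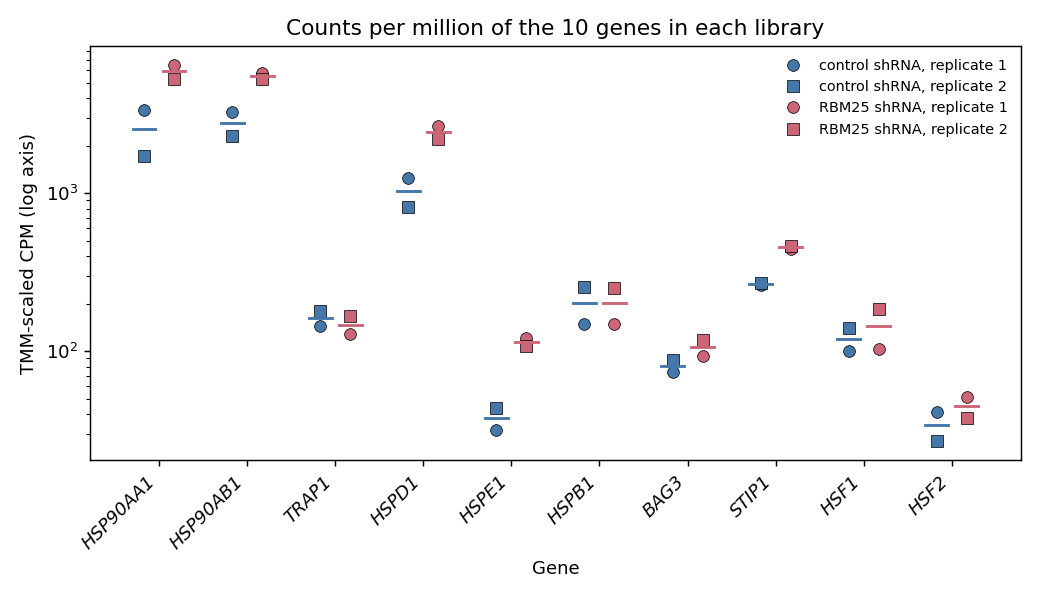
TMM-scaled CPM (vertical log axis) of the 10 genes (horizontal axis) in the 2 control shRNA libraries (blue) and the 2 RBM25 shRNA libraries (red), with circles for replicate 1, squares for replicate 2 and a bar at each group's mean. HSP90AA1 spans 1728 to 6504 CPM and HSPE1 31.5 to 122 CPM, both with separate groups, while the groups of TRAP1, HSPB1, HSF1 and HSF2 overlap.

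STIP1 (HOP), the co-chaperone that bridges HSP70 and HSP90 and passes clients between them (ENSG00000168439, chr11:64185272-64204543, plus strand), was at 263 and 269 CPM in the controls and at 447 and 466 CPM after RBM25 knockdown. The groups lay far apart for their spread, which was the smallest of the 10 genes relative to the mean in both groups. The means were 266 ± 4.3 and 456 ± 13.6 CPM (SD, n = 2 per group), and on the log2 scale the change was 0.78 ± 0.26 (edgeR adjusted p = 0.129). The model pools the spread across genes, and with the GC correction the change was 0.91 ± 0.16 with an adjusted p of 0.00463. Without either control replicate, or without either RBM25 shRNA replicate, the uncorrected log2 fold change stayed between 0.76 and 0.81.

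The other HSP90 partners were 20 genes, the endoplasmic reticulum paralog HSP90B1, co-chaperones, and AHSA2P, a pseudogene by its name. All 20 were tested. Of them 1 was called higher, beside 0.653% of all genes tested, and 0 lower, beside 2.4%. Above 0 were 12, beside 47.5%, and the median log2 fold change of the 20 was 0.30. The gene called was AHSA1, the activator of the HSP90 ATPase. It was at 77.9 and 89.5 CPM in the controls and at 192 and 199.7 CPM after RBM25 knockdown. The groups did not overlap, and the log2 fold change was 1.23 ± 0.27 (edgeR adjusted p = 0.0439). The call was lost when library totals replaced TMM (1.11, adjusted p = 0.0532), with limma on log2(FPKM + 1) (1.24, 0.0574) or log2(FPKM + 0.1) (1.26, 0.0555), and without RBM25 shRNA replicate 1 (1.26, 0.304) or 2 (1.23, 0.259). It held with the GC correction (1.31 ± 0.12, 0.000289).

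PPID, a cyclophilin that binds HSP90, was at 44.8 and 34.1 CPM in the controls and 78.3 and 74.0 CPM after RBM25 knockdown, with a log2 fold change of 0.95 ± 0.28 (adjusted p = 0.0978). CHORDC1 was at 77.3 and 43.5 against 132 and 101 CPM (0.95 ± 0.34, adjusted p = 0.147), and SUGT1, which joins HSP90 to ubiquitin ligase and immune receptor complexes, was at 80.7 and 55.4 against 128 and 101 CPM (0.75 ± 0.30, adjusted p = 0.188). In these 3 genes, named for their small p-values, the groups did not overlap. Of the 20, 8 had both RBM25 shRNA libraries above both controls, beside 23.9% of all genes tested. In 3 of the 20 they lay below both, beside 27.9%. After the GC correction 6 of the 20 were called higher, beside 12.8% of all genes, and 3 lower, a share near the 15.3% of all genes. HSP90B1, given as the remaining paralog, was at -0.17 ± 0.29 on the log2 scale (adjusted p = 0.769).

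The mitochondrial members were TRAP1, the HSP90 of that organelle, and the HSPD1 and HSPE1 chaperonin. TRAP1 (ENSG00000126602, chr16:3651639-3717597, minus strand) was at 145 and 179.8 CPM in the controls and at 128 and 167 CPM after RBM25 knockdown. The groups overlapped, replicate 2 was higher in both, and the log2 fold change was -0.14 ± 0.28 (edgeR adjusted p = 0.814). With the GC correction it was 0.005 ± 0.12 (adjusted p = 0.981), so its sign depended on that choice. The gene overlaps DNASE1 on the opposite strand.

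HSPD1 (ENSG00000144381, chr2:197486581-197516737, minus strand) was at 1254 and 822 CPM in the controls and at 2665 and 2206 CPM after RBM25 knockdown. The lowest knockdown library lay well above the highest control. The means were 1038 ± 306 and 2435 ± 325 CPM (SD, n = 2 per group), and the log2 fold change was 1.23 ± 0.29 (edgeR adjusted p = 0.0527). The GC-corrected change was 1.17 ± 0.19, and there the adjusted p was 0.00281. DESeq2 gave 1.28 with an adjusted p of 0.00396. Its 17 annotated pseudogenes were counted at 0.889% to 1.26% of the HSPD1 count, and the top one, HSPD1P1, at 169 and 105 counts in the controls and 436 and 313 in the RBM25 shRNA libraries.

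HSPE1 (ENSG00000115541, chr2:197499994-197503457, plus strand) was at 31.5 and 43.6 CPM in the controls and at 122 and 108 CPM after RBM25 knockdown, from 498 and 782 against 1815 and 1688 counts. The groups did not overlap, and the replicates did not keep one order across groups. The log2 fold change was 1.61 ± 0.29 (edgeR adjusted p = 0.0248), and 1.65 ± 0.17 (adjusted p = 0.000402) with the GC correction. Without RBM25 shRNA replicate 1 the call was lost at 1.52 with an adjusted p of 0.139. HSPE1 and HSPD1 are arranged head to head on opposite strands. The whole annotated span of HSPE1 lies within that of HSPD1 (chr2:197486581-197516737). The strand setting of the counting is not given in the sources used here, so reads in the overlap could not be assigned with certainty. The 26 annotated HSPE1 pseudogenes had counts of 1.95% to 3.58% of the HSPE1 count, a larger share than for HSPD1.

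The proteins of HSPD1 and HSPE1 assemble into 1 complex, so their ratio was taken in each library. Per listed length HSPD1 was at 18.6 and 8.78 times the HSPE1 level in the controls and at 10.2 and 9.55 times in the RBM25 shRNA libraries. The RBM25 shRNA values lay between the control values. The level of this ratio rests on listed lengths of 4245 bases for HSPD1 and 1977 for HSPE1. The log2 ratio differed by -0.37 (two-sided exact permutation p = 1, smallest possible 0.33).

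The 13 other mitochondrial chaperones and proteases were all tested. Of them 0 were called higher, beside 0.653% of all genes tested, and 1 lower, beside 2.4%. Above 0 were 5, beside 47.5%, and the median log2 fold change was -0.14. The gene that fell was LONP1, the main ATP-dependent protease of the matrix, at 235 and 366 CPM in the controls and 72.5 and 107 CPM after RBM25 knockdown. Its groups lay apart in the opposite direction to those of HSPD1 and HSPE1. The log2 fold change was -1.75 ± 0.33 (edgeR adjusted p = 0.0283), and -1.53 ± 0.13 with the GC correction (adjusted p = 0.000173). The call was lost without RBM25 shRNA replicate 1 (-1.49, adjusted p = 0.236) and with limma on log2(FPKM + 1) (-1.64, 0.0574) or log2(FPKM + 0.1) (-1.70, 0.0535). LONP1 overlaps RPL36 on the opposite strand. HSPA9, the matrix HSP70 that feeds HSPD1, was at 776 and 716 against 603 and 545 CPM (-0.38 ± 0.26, adjusted p = 0.43), and SPG7, a protease of the inner membrane, at 104 and 145 against 147 and 184 CPM (0.42 ± 0.29, adjusted p = 0.447). YME1L1, another inner membrane protease, had a log2 fold change of 0.42 ± 0.28 (adjusted p = 0.424). With the GC correction 1 of the 13 was called higher, SPG7 (0.57, adjusted p = 0.00979), beside 12.8% of all genes tested. The correction called 3 lower, LONP1, HSPA9 (-0.48, 0.0423) and AFG3L2 (-0.44, 0.0376), beside 15.3%. AFG3L2 was picked out by its value.

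HSPB1 (HSP27), the small heat shock protein among the 10 genes (ENSG00000106211, chr7:76302544-76304295, plus strand), was at 148 and 255 CPM in the controls and at 149.6 and 252 CPM after RBM25 knockdown. The same-numbered libraries nearly coincided, and replicate 2 was higher in both groups. The means were 202 ± 75.8 and 201 ± 72.2 CPM (SD, n = 2 per group), and the log2 fold change was -0.007 ± 0.36 (edgeR adjusted p = 0.995). With the GC correction it was 0.21 ± 0.13 (adjusted p = 0.249), and the sign was also positive with DESeq2 size factors (0.036).

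Other small heat shock proteins were scarce. Of 9, 6 were under 1 CPM in every library, and 2 of these, HSPB3 and CRYAA, were at 0 in all 4, which allows up to 3 counts per library. Of the 3 tested, 0 were called in either direction by edgeR, 0 had an unadjusted p under 0.05, and 0 were called by DESeq2. The GC correction called 1 of the 3 higher, HSPB11 (0.76, adjusted p = 0.0457), beside 12.8% of all genes tested. HSPB11, an intraflagellar transport protein, was at 18.7 and 16.2 CPM in the controls and at 33.4 and 22.2 CPM after RBM25 knockdown (0.67 ± 0.32, adjusted p = 0.257). HSPB8, the small heat shock protein that BAG3 binds, was at 6.96 and 5.75 against 8.51 and 10.3 CPM (0.56 ± 0.32, adjusted p = 0.35). Both had groups that did not overlap, with RBM25 shRNA higher, beside 23.9% of all genes tested. HSPB6, the other gene tested, had groups apart with RBM25 shRNA lower, beside 27.9%. It was scarce, at 0.632 and 0.725 against 0.536 and 0.446 CPM (-0.465 ± 0.667, adjusted p = 0.735).

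BAG3, the co-chaperone that links HSP70 and small heat shock proteins to autophagy (ENSG00000151929, chr10:119651370-119677819, plus strand), was at 73.9 and 88.2 CPM in the controls and at 93.6 and 118 CPM after RBM25 knockdown. The groups did not overlap, but the gap between them was smaller than the difference between replicates. The means were 81.1 ± 10.1 and 105.9 ± 17.3 CPM (SD, n = 2 per group), and the log2 fold change was 0.39 ± 0.28 (edgeR adjusted p = 0.46). With the GC correction the change was 0.55 ± 0.12 and the adjusted p 0.0123. The 5 other BAG genes were all above 0, beside 47.5% of all genes tested, with a median of 0.15. Of them 0 were called by edgeR or DESeq2, and 0 had an unadjusted p under 0.05. BAG2 (0.50 ± 0.27, adjusted p = 0.331) and BAG4 (0.48 ± 0.29, adjusted p = 0.366) had the smallest p-values among these.

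HSF1, the main heat shock factor (ENSG00000185122, chromosome 8, 144291591 to 144314722, plus strand), was at 99.9 and 139.6 CPM in the controls and at 104 and 185 CPM after RBM25 knockdown. The groups overlapped and replicate 2 was higher in both. The log2 fold change was 0.27 ± 0.34 (edgeR adjusted p = 0.697), it was -0.18 without RBM25 shRNA replicate 2, and with the GC correction it was 0.43 ± 0.14 with an adjusted p of 0.0501. The 3′ end of HSF1 overlaps DGAT1 on the opposite strand. HSF2, a second heat shock factor that can pair with HSF1 (ENSG00000025156, chr6:122399546-122433119, plus strand), was at 41.2 and 26.9 CPM in the controls and at 51.5 and 38.0 CPM after RBM25 knockdown. Its groups overlapped too, with replicate 1 higher in both (0.40 ± 0.32, adjusted p = 0.515). Neither value measures the activity of a factor, which is set largely after transcription.

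Of 5 other heat shock factor genes and genes for factor-binding proteins, 4 were tested and 0 were called in either direction by edgeR, with 3 at an unadjusted p under 0.05, beside 21.4% of all genes. DESeq2 called 0 higher and 1 lower. HSF4, best known from the lens, was at 5.50 and 15.5 CPM in the controls and at 2.01 and 4.01 CPM after RBM25 knockdown (-1.80 ± 0.53, adjusted p = 0.0968). HSBP1, which binds the trimerisation domain of HSF1, was at 159 and 169.6 against 276 and 257 CPM (0.70 ± 0.26, adjusted p = 0.166). In both genes the groups did not overlap. Over all genes tested, groups lay apart with RBM25 shRNA higher in 23.9% and lower in 27.9%. The HSF4 value moved with single libraries of both groups. It was -0.86 without control replicate 2 and -2.36 without control replicate 1. Without RBM25 shRNA replicate 1 or 2 it was -1.387 and -2.355. HSF2BP stayed at or below 2.36 CPM (1.94 ± 0.58, adjusted p = 0.0982). The GC correction called HSBP1 (0.61, adjusted p = 0.0161) and HSF2BP (1.97, 0.0219) higher and HSF4 (-1.53, 0.00863) lower. Over all genes tested it called 12.8% higher and 15.3% lower.

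The 13 other heat-inducible genes of the HSP70, HSP110 and J-domain families and their neighbours were listed with their behaviour in these data known. All were tested. Of them 4 were called higher, beside 0.653% of all genes tested, and 0 lower, beside 2.4%. Above 0 were 11, beside 47.5%, with a median of 0.99. The 4 were HSPA8, HSPH1, DNAJA1 and HSPA1B, HSP70 chaperones or their partners, of which HSPA8 went from 548 and 368 CPM to 2918 and 2473 CPM. The count ranged from 2 to 8 when single libraries were left out, and it was 2 without RBM25 shRNA replicate 1. There HSPA8 was still called (adjusted p = 0.000258), and HSPH1 (0.0547), DNAJA1 (0.0834) and HSPA1B (0.0875) were not. With the GC correction 10 of the 13 were called higher, beside 12.8% of all genes tested.

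**Figure D3:**
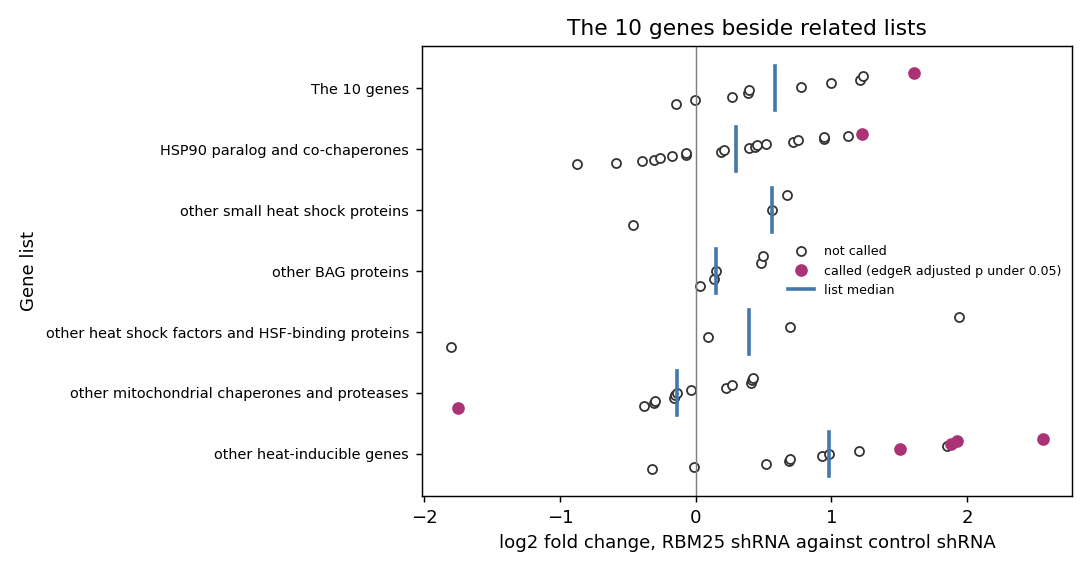
Log2 fold change, RBM25 shRNA against control shRNA (horizontal axis), of each tested gene in the 10-gene set and in 6 related lists (vertical axis). Filled points have an edgeR adjusted p under 0.05, and blue bars are list medians, which run from -0.14 for mitochondrial chaperones and proteases to 0.99 for other heat-inducible genes, with 0.59 for the 10 genes.

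Levels of different genes were compared per gene length, with the deposited FPKM, so their order rests on the listed lengths. In the controls the order by mean was HSP90AB1 at 894 FPKM, HSP90AA1 at 467, HSPD1 at 235, HSPB1 at 118, STIP1 at 54.9, TRAP1 at 29.9, BAG3 at 28.4, HSF1 at 21.7, HSPE1 at 18.3 and HSF2 at 12.1. HSP90AB1, HSP90AA1 and HSPD1 headed this order, and HSF1, HSPE1 and HSF2 closed it. TRAP1 (26.8 and 33.0 FPKM) and BAG3 (25.9 and 30.8 FPKM) did not differ beyond their spread, nor did HSF1 (18.1 and 25.2 FPKM) and HSPE1 (15.3 and 21.2 FPKM). In the RBM25 shRNA libraries HSP90AB1 was at 1829 FPKM, HSP90AA1 at 1111 and HSPD1 at 567, in the same order. HSPE1 stood ninth of 10 in the controls and sixth in the RBM25 shRNA libraries, at 57.3 FPKM. There HSPB1 (92.5 and 148 FPKM) and STIP1 (96.9 and 96.3 FPKM) overlapped.

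The members differed in how their replicates were ordered. In HSP90AA1, HSP90AB1, HSPD1 and HSF2, with a transcript GC content of 40.5% to 48.1%, replicate 2 lay below replicate 1 in both groups. TRAP1, BAG3, HSPB1 and HSF1, with 55.95% to 64.7% GC, had replicate 2 above replicate 1 in both groups. STIP1 had 55.2% GC and replicates within 0.06 on the log2 scale. The whole libraries showed this too, since over 10380 genes (not independent of each other) the difference between replicates went with GC content at a Spearman rho of 0.824 in the controls and 0.837 in the RBM25 shRNA libraries.

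For HSPB1 the GC correction brought the replicate difference from 0.79 to 0.002 in the controls and from 0.75 to 0.07 in the RBM25 shRNA libraries. For STIP1 it widened the difference, from 0.03 to -0.32 in the controls and from 0.06 to -0.21 in the RBM25 shRNA libraries. For HSP90AA1 a difference of -0.76 between the controls remained, from -0.96 before. The log2 fold change itself went with GC content at a Spearman rho of -0.305 over the same genes. The part of GC content in the members' differences was not tested.

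**Figure D4:**
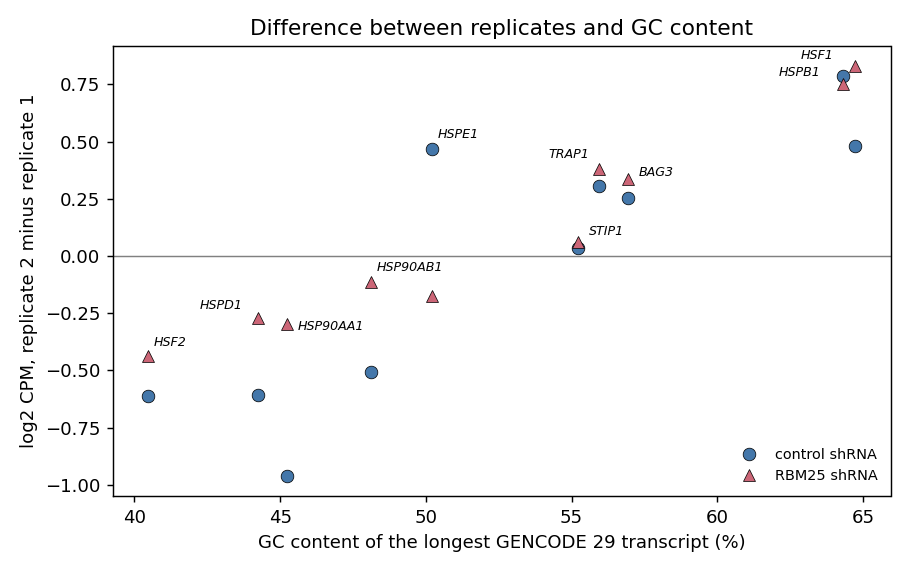
Difference in log2 CPM, replicate 2 minus replicate 1 (vertical axis), of each of the 10 genes against the GC content of its longest GENCODE 29 transcript in percent (horizontal axis), for control shRNA (circles) and RBM25 shRNA (triangles). The low-GC genes HSF2, HSPD1, HSP90AA1 and HSP90AB1 lie below 0 in both groups and the high-GC genes HSPB1 and HSF1 reach 0.79 and 0.83.

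The profile of HSP90AA1 over the 4 libraries was set against 9996 protein-coding genes by the Euclidean distance between mean-centred log2 CPM. The closest were ZDHHC2, a palmitoyltransferase (0.034), MTMR2 (0.060), YAF2 (0.076), GMFB (0.080) and HSPA4L, an HSP110 chaperone (0.089). For HSPD1 the closest were EIF5A2 (0.046), ATL3 (0.061), CCDC117 (0.062), FASTKD2 (0.065) and TAF13 (0.077). The edgeR adjusted p of these 10 genes was 0.0597 to 0.116, and their GC content was 33.4% to 41.7%. Among the members, HSPD1 (0.251) and HSP90AB1 (0.437) were nearest to HSP90AA1 and HSPB1 (1.930) was farthest. With 4 libraries such distances describe these profiles and no more.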

How the data were processed

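RNA-seq of 4 HCT116 libraries was used, 2 per group, grouped by sample title. Total RNA was isolated with TRIzol before Illumina library preparation, per the labels' protocols. The submitters' processing notes list Cuffdiff (2.1.1), Cufflinks (2.1.1), TopHat2 (2.0.9) and Bowtie2 (2.0.6) with no roles. The tool that counted reads, its strand setting and the build were not given in the sources used here. The authors deposited whole-number counts per gene, and these were tested. The deposited FPKM were those counts divided by listed gene length and 1 factor per library (0.951 to 1.10 times its total), so they are no independent measure; they served for levels and for an alternative. Positions of all 58735 genes equal GENCODE 29 on GRCh38, used for coordinates, and 27 names held as calendar dates were restored by gene ID. Replicates differed beyond counting noise (chi-square per degree of freedom of 70.9 in the controls and 27.7 in RBM25 shRNA).

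Genes passing filterByExpr were fitted with edgeR 4.0.16 (R 4.3.3), TMM scaling and a term for group alone, so that 2 residual degrees of freedom remained. The quasi-likelihood F test was two-sided with Benjamini-Hochberg adjustment over 16091 genes and a threshold of 0.05, and the SE is the size of the log2 fold change divided by the square root of F. Replicate SDs rest on 2 values. Alternatives were DESeq2 size factors, library totals, no filter, a filter of 1 CPM in both libraries of a group, limma-voom (limma 3.58.1), a replicate block, DESeq2's Wald test (1.42.0), limma-trend on log2(FPKM + 1) and log2(FPKM + 0.1), a GC correction (offsets from a lowess trend with a span of 0.3 on the GC content of the longest transcript, with a GC value for 99.95% of genes), both together, and leaving out each library. Log2 CPM for profiles had a prior count of 2. The fit was also run on simulated data, and nothing here rests on that run.

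The 10 members, the related lists and the tests were chosen with earlier results of these data known. Named from each list were all genes called or, below 4, up to 4 with the smallest adjusted p, and a part of these is described. Profile neighbours were the 5 nearest of protein-coding genes with an average log2 CPM of at least 3. Promoters came from the RefSeq table of GRCh38.p14, which held 9 of the members. Figures were drawn with matplotlib 3.10.9.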

Additional observations from a re-analysis of the deposited data

How the results depend on the processing

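Members called higher numbered 1 with edgeR and TMM, 4 with no filter, 4 with DESeq2, 6 with the GC correction, 6 with a replicate block, 7 with the GC correction and the replicate block together, and 0 to 4 when each library was left out. The other alternatives gave 1, and no alternative called a member lower. Over all genes the calls were 105 higher and 386 lower with TMM, 116 and 350 with DESeq2 size factors, 76 and 458 with library totals, 439 and 999 with no filter, 386 and 699 with DESeq2, 58 and 157 or 72 and 196 with log2 FPKM and pseudocounts of 1 or 0.1, 2641 and 3081 with the replicate block, 2054 and 2464 with the GC correction and 3029 and 3311 with both. Leaving out a library gave 70 to 906 higher and 173 to 1591 lower. Library totals moved the median of all genes from -0.036 to -0.146.

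The labels number the replicates but name no shared batch, and with 2 pairs the pairing is a number only. Deviations of same-numbered libraries correlated at 0.757 over 10380 genes. RBM25 was at -1.46 with log2(FPKM + 1) (adjusted p = 0.0572), and at -1.96 to -1.53 with a library left out. Directions that turned were those of values near 0. TRAP1 was at 0.005 with the GC correction, with or without the block, and at -0.317 to 0.038 with a library left out. HSPB1 was at 0.036 with DESeq2 or its size factors, 0.019 with no filter, 0.035 with either FPKM pseudocount, 0.207 with the GC correction, with or without the block, and -0.40 to 0.44 with a library left out. With a library left out HSF1 was at -0.18 to 0.63, BAG5 at -0.025 to 0.356, BAG1 at -0.046 to 0.345, HSBP1L1 at -0.028 to 0.214 and KRT19 at -0.067 to 0.549, and HSBP1L1 was at -0.025 with library totals. Of 150 recomputed member values, 107 kept direction and side of the threshold, 28 passed it newly, 1 lost it and 14 changed sign. The cause was not tested. Where a group was left with 1 library, that library was assumed to vary like the others.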
